A study of Mus musculus with 4 samples.

Results

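The serine protease inhibitors (serpins) of mouse killer lymphocytes are described here through 5 genes, Serpinb6a, Serpinb6b, Serpinb9, Serpinb9b and Serpina3g, which were taken by symbol from the 27998 genes of a single-cell count matrix. Each of the 5 symbols matched 1 gene. They were chosen by their levels in cell classes and by their relation to granzymes in CD8 T cells, so those values are given as a description with no test. Only the comparison of tumour genotypes was tested.

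The samples were 4 libraries of leukocytes from tumours of B16-F10, a pigmented melanoma line of C57BL/6 origin that forms tumours in mice of that strain. In 2 libraries, called S1 and S2, the tumours were Adar1 null, and in 2 others, S3 and S4, they were control tumours. Adar encodes Adar1, an enzyme that converts adenosine to inosine in double-stranded RNA. By the labels the genotype is that of the tumour, grown in C57BL/6 hosts, and no treatment, age or sex of the mice is named. All tumours came from 2000000 cells placed under matrigel, were removed on day 14, digested with collagenase P and DNase I, and enriched for leukocytes by a density gradient and by magnetic beads against CD45. Libraries were of the 10x 3′ type, in which each captured messenger RNA is counted once through its unique molecular identifier (UMI).

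Serpins inhibit proteases by offering a reactive loop as bait. The protease cleaves the loop and is then held in a covalent complex that destroys its activity. Cytotoxic lymphocytes store granzymes, the serine proteases that they deliver into target cells with perforin, and a granzyme that leaks from its granule can kill the cell that made it. Intracellular serpins of clade B in the cytosol and nucleus are known for protecting the killer cell from this. Serpinb9, also called Spi6, inhibits granzyme B, the main caspase-like granzyme. Serpinb6b is known as an inhibitor of granzyme A, a tryptase. Serpinb9b is a close paralog of Serpinb9 that has been described as an inhibitor of granzyme M. Serpinb6a inhibits cathepsin G and related proteases and is made by many cell types. Serpina3g, or Spi2A, belongs to clade A but stays inside the cell, where it inhibits lysosomal cathepsins such as cathepsin B, and it is known as an interferon-induced gene.

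The clade B genes lie together on chromosome 13 of GRCm38.p6, the assembly of the mm10 build that the submitters' processing notes name. Serpinb6b spans 32956811 to 32979067, Serpinb9 spans 32997061 to 33017955 and Serpinb9b spans 33027414 to 33040588. Serpinb6a lies further along the same chromosome, at 33917918 to 34002794. Serpina3g is on chromosome 12 at 104236147 to 104241939. Serpinb9 and Serpinb9b share 85.3% of their aligned coding bases (967 of 1134), Serpinb6a and Serpinb6b share 81.2%, and Serpinb6b and Serpinb9 share 67.4%. In the last 500 bases of the transcript, which 3′ libraries read, none of the 451 windows of 50 bases in Serpinb6a, Serpinb6b, Serpinb9 or Serpinb9b occurred in another gene. Reads of these paralogs could therefore be told apart there. Serpina3g shared 11 of its 451 windows (2.44%) with Serpina3f, a neighbour of the same clade.

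The 250 bases before a start listed in the RefSeq promoter table are printed 5′ to 3′ for the 3 genes whose levels moved with granzymes in the CD8 T cells described further on and for Serpina3g, whose level was not higher in the highest granzyme tertile than in the lowest in 3 of 4 libraries. The sequences are from the RefSeq assembly GRCm38.p6, all on the plus strand, and capitals mark matches to the motifs searched. For Serpinb6b and Serpinb9 the listed start lies inside the RefSeq gene span given above, past its first base, and windows at other starts of these genes were not searched.
Serpinb6b, chr13:32965011-32965260: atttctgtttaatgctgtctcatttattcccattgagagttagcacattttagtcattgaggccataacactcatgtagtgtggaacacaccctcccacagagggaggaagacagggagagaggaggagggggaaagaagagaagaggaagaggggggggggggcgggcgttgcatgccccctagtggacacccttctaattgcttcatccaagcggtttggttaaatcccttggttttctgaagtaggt
Serpinb9, chr13:33004291-33004540: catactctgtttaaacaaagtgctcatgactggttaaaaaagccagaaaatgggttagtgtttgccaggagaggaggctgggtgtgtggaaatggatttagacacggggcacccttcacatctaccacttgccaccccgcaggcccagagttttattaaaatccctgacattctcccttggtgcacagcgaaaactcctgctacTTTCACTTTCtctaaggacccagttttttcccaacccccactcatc
Serpinb9b, chr13:33027164-33027413: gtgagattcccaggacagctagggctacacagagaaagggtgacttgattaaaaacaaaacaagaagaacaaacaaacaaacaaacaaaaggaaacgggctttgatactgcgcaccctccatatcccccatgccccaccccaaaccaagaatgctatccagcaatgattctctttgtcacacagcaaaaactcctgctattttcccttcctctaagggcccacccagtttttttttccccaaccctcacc
Serpina3g, chr12:104235897-104236146: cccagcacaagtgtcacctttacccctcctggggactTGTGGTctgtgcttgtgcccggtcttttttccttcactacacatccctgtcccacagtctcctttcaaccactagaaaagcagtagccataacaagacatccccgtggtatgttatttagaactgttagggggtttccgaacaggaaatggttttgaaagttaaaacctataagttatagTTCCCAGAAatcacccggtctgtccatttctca

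The letter patterns searched, on both strands, were the core of interferon-response elements (GAAA and GAAA with any 2 bases between), TTCNNNGAA (STAT), TGANTCA (AP-1), AGGTGT (T-box), TGTGGT (Runx) and the kB core (GGGA and TTCC with any 2 bases between). Serpinb9 held 1 match, to the interferon-response core on the minus strand, 46 to 37 bases before the start. Of 32851 promoter windows of this length in the annotation, 978 (2.98%) held this pattern. Serpina3g held the STAT pattern 33 to 25 bases before the start and the Runx pattern 213 to 208 bases before it, which 7.02% and 14.0% of the windows held. Serpinb6b and Serpinb9b had no match to any pattern in this window. Serpinb6a has 2 starts in the table, and the upstream one held the interferon-response core 84 to 75 bases before the start, overlapped by a STAT match at 77 to 69. The promoters of Serpinb9 and Serpinb9b shared 57.0% of aligned bases (155 of 272), against 40.1% to 44.5% for the other pairs of these promoters. A match is a run of letters and does not show that a factor binds there.

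After removal of cells with few genes or many mitochondrial UMIs, 8677 of 8838 barcodes were kept, 1957 to 2786 per library, with a median of 7694 to 8881 UMIs per cell. Of the barcode sequences, 38 occurred in more than 1 library. Cells were sorted into classes by UMIs of marker genes, none of them a serpin and none a granzyme other than Gzma, listed for natural killer cells. The CD8 T cell class held 272, 325, 250 and 238 cells in S1 to S4, and the natural killer class 13, 32, 37 and 13. The CD3 genes stood at 2930 to 3687 CPM (UMIs of the gene per 1000000 UMIs of the class) in CD8 T cells, 13.6 to 31.0 CPM in natural killer cells and 7.16 to 11.8 CPM in monocytes or macrophages. The summed myeloid markers stood at 19998 to 24477 CPM in monocytes or macrophages and still at 565 to 776 CPM in CD8 T cells, a level that the 2 groups shared (565 and 776 in null, 683 and 720 in control). Adar itself stood at 9.58 and 13.0 CPM in the melanoma cells of null libraries and 10.9 and 12.7 CPM in those of control libraries. A 3′ tag says nothing about an edit in the coding sequence.

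One CD8-gated cell in each null library, and none in the control libraries, carried many collagen transcripts (383 and 263 UMIs of fibroblast genes). These 2 cells held 32 of the 313 Serpinb6a UMIs of S1 and 8 of the 417 of S2, but 1 and 2 of the UMIs of Serpinb6b, 1 and 2 of Serpinb9 and none of Serpinb9b. Without them Serpinb6a stood at 115 and 121 CPM in the CD8 T cells of S1 and S2, in place of 127 and 123, and Serpina3g at 294 and 324 CPM in place of 298 and 326. The granzyme relation and the genotype difference of Serpinb6a are given with and without these cells.

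Serpinb6b and Serpinb9 were carried by lymphocytes and by mature dendritic cells. Serpinb6b stood at 232, 299, 422 and 515 CPM in the CD8 T cells of S1 to S4, with a mean of 367 CPM over the 4 libraries. In natural killer cells it stood at 525, 801, 563 and 558 CPM, above every CD8 value, from 435 UMIs in 95 cells. This separation depended on the gates. With clusters in place of gates, natural killer cells held 332, 602, 462 and 548 CPM and CD8 T cells 224, 261, 413 and 506 CPM, which overlap. Monocytes or macrophages held 6.79, 9.81, 9.44 and 2.18 CPM and melanoma cells a mean of 2.03 CPM. Mature dendritic cells, which express Ccr7, had the highest mean of all classes at 1346 CPM (1975, 1332, 1353 and 724), although their range overlapped that of natural killer cells. Type 1 dendritic cells had a mean of 225 CPM and type 2 dendritic cells 3.39 CPM. The dendritic subsets thus had both the highest and the lowest mean among the leukocyte classes. The remaining T cells, a mixed class without CD8 or Foxp3 transcripts over the gate, covered 31.1 to 596 CPM, and regulatory T cells had a mean of 52.6 CPM.

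Serpinb9 was arranged in the same way. Its CD8 values were 115, 167, 197 and 238 CPM, its natural killer values 192, 299, 322 and 269 CPM and its mature dendritic values 639, 512, 256 and 200 CPM. These 3 classes overlapped from neighbour to neighbour in the order of their means. Monocytes or macrophages held 19.6, 24.7, 19.9 and 7.22 CPM. A Serpinb9 UMI was found in 44.5% to 80.7% of CD8 T cells and in 5.64% to 15.1% of monocytes or macrophages, at median depths of 7752 to 9797.5 and 6575.5 to 8013 UMIs per cell. Only type 1 dendritic cells against regulatory T cells (means of 67.3 and 52.3 CPM) differed without overlap among neighbours in the order.

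Serpinb9b was found mainly in T cells and natural killer cells. In CD8 T cells it stood at 31.3 and 9.12 CPM in S1 and S2 and at 72.2 and 175 CPM in S3 and S4, from 77, 31, 187 and 463 UMIs. The UMIs lay in few cells: 6.25%, 3.38%, 11.6% and 31.5% of CD8 T cells had one, against 0.270% to 0.627% of monocytes or macrophages and 0.906% to 3.46% of melanoma cells, whose median depth was 29385 to 34910 UMIs. Natural killer cells held 80.8, 122, 156 and 31.0 CPM, which rest on 8, 27, 42 and 3 UMIs. Their range overlapped that of CD8 T cells. In the mixed class of other T cells 22 UMIs were counted, and S1 and S2 had none. Regulatory T cells, type 1 and type 2 dendritic cells and fibroblasts had no Serpinb9b UMI, and mature dendritic cells had 1. For regulatory T cells the upper 95% limits of counting error were 18.0, 31.2, 34.5 and 54.3 CPM in S1 to S4, since the class held only 63 cells. Mature dendritic cells therefore separated Serpinb9b from Serpinb9, with 402 CPM of Serpinb9 and 0.863 CPM of its paralog.

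Serpina3g and Serpinb6a were not confined to lymphocytes. Serpina3g was nearly constant in CD8 T cells at 298, 326, 310 and 298 CPM (308 ± 13.4, SD, n = 4). In natural killer cells it stood at 263, 299, 315 and 454 CPM, in type 1 dendritic cells at 517, 219, 712 and 552 CPM and in regulatory T cells at 308, 432, 608 and 324 CPM. Monocytes or macrophages varied between libraries, with 178, 387, 237 and 104 CPM, a range that enclosed that of CD8 T cells. Melanoma cells had a mean of 5.26 CPM, below every library of the next class up in the order. Serpinb6a was likewise even in CD8 T cells, at 127, 123, 120 and 145 CPM (129 ± 11.3, SD, n = 4). Its highest class was fibroblasts, at 425, 835, 764 and 667 CPM, above all monocyte or macrophage values (184, 76.5, 188 and 357 CPM). Melanoma cells held 29.5 to 33.5 CPM, and type 1 dendritic cells had a mean of 5.87 CPM.

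Across classes, every CD8 library lay above every monocyte or macrophage library for Serpinb6b, Serpinb9 and Serpinb9b and not for Serpinb6a or Serpina3g, so for 3 of the 5 genes. The same was seen for 38.9% of the 9409 genes compared. These levels are what the genes were chosen for and nothing is read from the count.

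**Figure D1:**
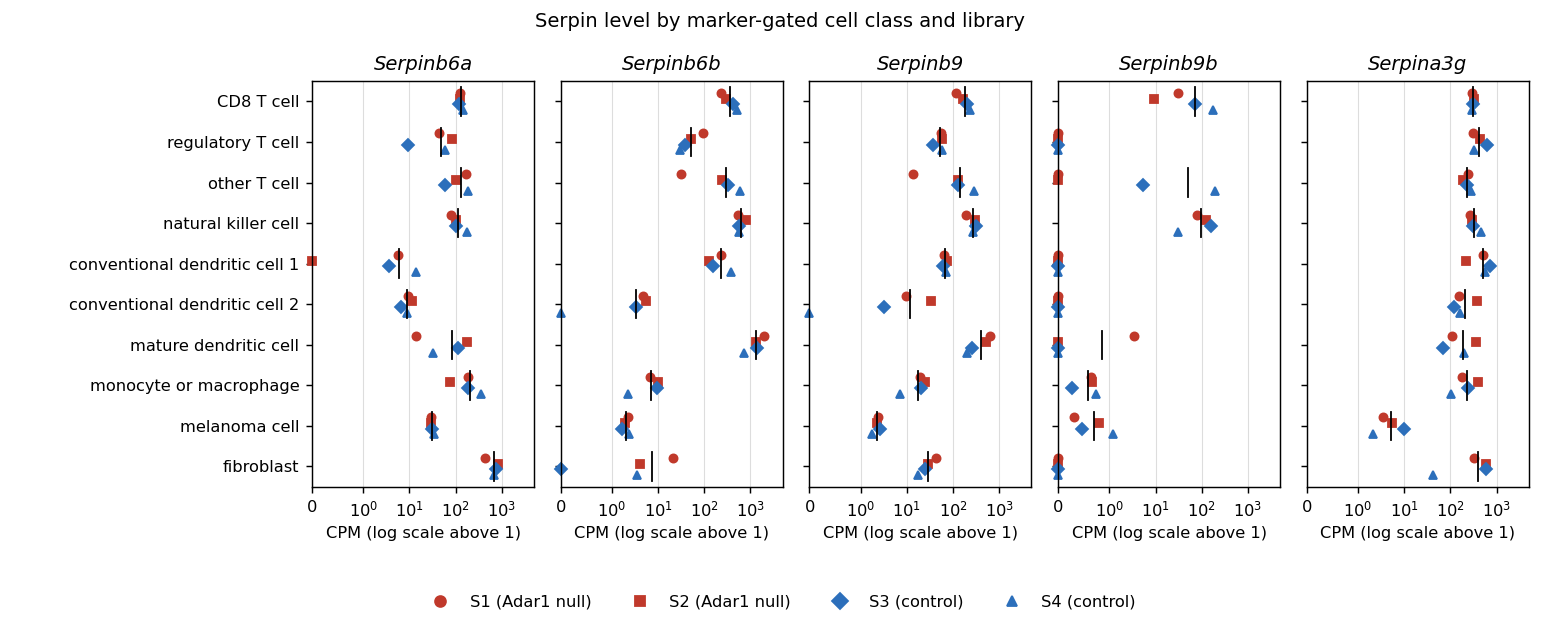
CPM (x axis, logarithmic above 1) of each serpin in each marker-gated class (y axis), with 1 point per library and a bar at the mean of the 4 libraries. Serpinb6b and Serpinb9 lie to the right in CD8 T cells, natural killer cells and mature dendritic cells, Serpinb9b above 9 CPM in all libraries only in CD8 T cells and natural killer cells, and Serpinb6a and Serpina3g are spread over lymphoid and myeloid classes.

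Of the granzymes in these cells, Gzma and Gzmf are given for both killer classes, where their levels differed. Gzmb, Gzmm and perforin are given for CD8 T cells alone. Gzmb stood at 1742, 3722, 3567 and 2661 CPM in CD8 T cells. Gzma, the target of Serpinb6b, stood at 15.1 to 103 CPM in CD8 T cells and at 2687 to 4775 CPM in natural killer cells. Since Gzma was among the markers listed for natural killer cells, its level there may follow in part from how the class was drawn. Gzmf was found at 301, 59.2, 1130 and 3471 CPM in CD8 T cells and at 0 to 51.6 CPM in natural killer cells. Gzmm, for whose product Serpinb9b is described as an inhibitor, was at or under 2.84 CPM in CD8 T cells. Perforin (Prf1) stood at 26.4, 63.6, 81.8 and 57.4 CPM in CD8 T cells.

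To relate inhibitors to their proteases, the CD8 T cells of each library were split into tertiles, 3 bins of near-equal size, by the share of their UMIs that came from 10 granzyme genes (Gzma to Gzmg, Gzmk, Gzmm and Gzmn). The median share was 0.0115% to 0.112% in the lowest tertile and 0.449%, 0.596%, 0.846% and 1.34% in the highest tertile of S1 to S4. Serpinb6b went from 110 CPM over 230 to 331 CPM in S1 between the lowest, middle and highest tertile. In S2 the values were 205, 279 and 395 CPM, in S3 146, 329 and 711 CPM, and in S4 400, 474 and 637 CPM. The order was thus the same in all 4 libraries, and the lowest tertile of S4 lay above the highest tertile of S1. The mean log2 ratio of the highest to the lowest tertile was 1.37 ± 0.72 (SD, n = 4 libraries).

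Serpinb9, the granzyme B inhibitor, stood at 63.3, 116 and 156 CPM in the tertiles of S1 and at 123, 135 and 233 CPM in those of S2. In S3 it stood at 85.7, 185 and 293 CPM and in S4 at 179, 242 and 279 CPM. Its mean log2 ratio was 1.16 ± 0.49, again with the tertiles in the same order in each library. Serpinb9b was nearly absent from the lowest tertile, where S1 to S4 held 0, 0, 1 and 9 UMIs. The highest tertile held 67, 31, 172 and 393 UMIs, or 72.9, 24.5, 174 and 389 CPM, from 13 of 90, 11 of 108, 22 of 83 and 51 of 79 cells. For the libraries without a UMI in the lowest tertile, 3 counts would be 4.04 CPM in S1 and 2.79 CPM in S2. With sums under 3 UMIs set to 3, the mean log2 ratio was 4.45 ± 1.02. It was 3.18 after thinning each cell to 3000 UMIs and 2.81 in the 416 cells without a UMI of the cell cycle genes Mki67 or Top2a. In these 2 settings the lowest tertiles of S1 to S4 held 0, 0, 0 and 4 UMIs and 0, 0, 1 and 2 UMIs. With the floor of 3 UMIs there, fewer UMIs in the highest tertile lower the ratio by themselves. The 2 values therefore do not show a weaker relation. Over all CD8 T cells the middle tertile of S1, S3 and S4 lay between the others, at 12.5, 16.6 and 68.8 CPM, and in S2 it held no UMI.

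Serpinb6a had values of 143, 109 and 130 CPM in the tertiles of S1 and of 100, 126 and 195 CPM in those of S4, with S2 (98.8, 117 and 148) and S3 (96.3, 106 and 151) ordered as S4. Its mean log2 ratio was 0.52 ± 0.46, and 0.65 ± 0.25 without the 2 collagen-carrying cells, when it was above 0 in all 4 libraries. Serpina3g showed no such order. It stood at 302, 318 and 277 CPM in S1, 338, 372 and 278 CPM in S2, 293, 340 and 297 CPM in S3 and 331, 335 and 241 CPM in S4, with a mean log2 ratio of -0.21 ± 0.21. The middle tertile was the highest in each library.

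Serpinb6b, Serpinb9 and Serpinb9b were higher in the highest tertile in all 4 libraries, which held for 11.4% of the 8319 genes at or above 5 CPM on average, while 10.9% were lower in all 4. By mean ratio Serpinb9b had rank 6 among these genes, after Gzmf, Gzmd, Gzmc, Gzme and Gzmg and before Gzmb. The granzymes define the tertiles, so their own high ranks follow from the split. The serpins were chosen by their relation to granzymes, so their ranks are a description. Serpinb6b had rank 35, Serpinb9 rank 59, Serpinb6a rank 479 and Serpina3g rank 6224. Cells of the highest tertile were also deeper, with median totals of 9743, 10153, 10759 and 11414 UMIs against 7034, 8810, 7926.5 and 8485 in the lowest. With each cell thinned to 3000 UMIs, a Serpinb9b UMI was found in 12.2%, 8.33%, 20.5% and 44.3% of cells of the highest tertile and in 0%, 0%, 0% and 5% of the lowest. Without thinning the shares in the highest tertile were 14.4%, 10.2%, 26.5% and 64.6%. For Serpinb6b the thinned shares were 46.7%, 57.4%, 67.5% and 74.7% in the highest tertile and 17.6%, 28.4%, 28.6% and 56.2% in the lowest. At equal depth the highest tertile thus stayed above the lowest for both genes in each library. Myeloid markers summed to 525 to 836 CPM in the highest and 726 to 753 CPM in the lowest tertile, and cell cycle genes to 4353 to 5349 and 4562 to 5439 CPM.

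**Figure D2:**
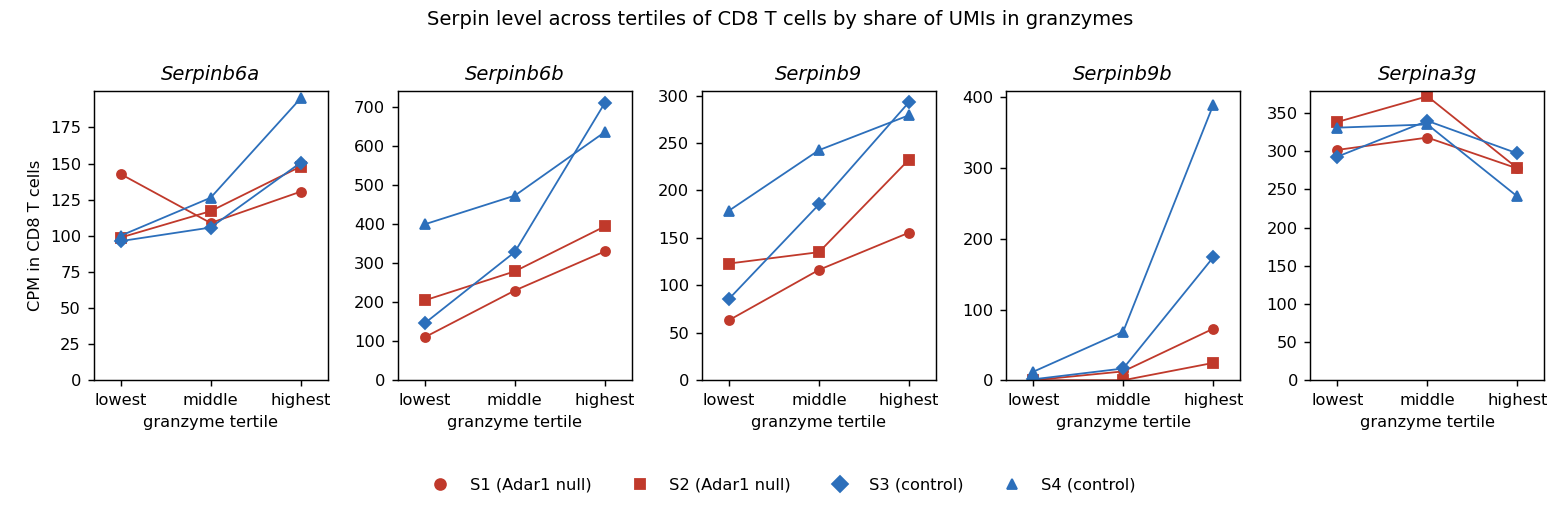
CPM of each serpin (y axis, a separate scale per gene starting at 0) in the CD8 T cells of the lowest, middle and highest tertile by share of UMIs in granzymes (x axis), with 1 line per library. The lines of Serpinb6b and Serpinb9 rise from left to right in all 4 libraries, those of Serpinb9b stay near 0 until the highest tertile in S1 to S3, and those of Serpina3g peak in the middle tertile.

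The CD8 T cells were also divided by granzymes C to G, of which 32.0%, 24.3%, 47.2% and 66.8% of cells in S1 to S4 had a UMI. Median depth was 9859, 13148, 11364 and 11194 UMIs in cells with such a UMI and 7214, 8007.5, 7742.5 and 7195 UMIs in cells without. Of the 5 serpins, Serpinb9b had the largest ratio in this division. Cells with such a UMI held 79.3, 25.5, 123 and 231 CPM of Serpinb9b, and cells without held 1.32, 1.30, 7.07 and 8.93 CPM, from 2, 3, 8 and 6 UMIs. With sums under 3 UMIs set to 3 the mean log2 ratio was 4.61 ± 0.54 (SD, n = 4 libraries). After thinning to 3000 UMIs, 12 of 12, 4 of 9, 17 of 19 and 43 of 51 Serpinb9b-positive cells also had a granzyme C to G UMI, where 25.7%, 16.6%, 36.8% and 54.6% of all CD8 T cells had one.

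Serpinb6b stood at 360, 473, 543 and 546 CPM with and 152, 216, 265 and 424 CPM without granzymes C to G (mean log2 ratio 0.94 ± 0.40). Serpinb9 stood at 187, 246, 251 and 262 CPM with and 69.9, 130, 128 and 168 CPM without (0.99 ± 0.32). For both genes, cells lacking granzymes C to G still held a substantial level, which set them apart from Serpinb9b. Serpinb6a, at 131, 127, 120 and 153 CPM against 125, 121, 120 and 122 CPM, had a mean log2 ratio of 0.12 ± 0.14. Serpina3g, at 297, 267, 319 and 272 CPM against 298, 354, 297 and 372 CPM, had one of -0.19 ± 0.28.

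**Figure D3:**
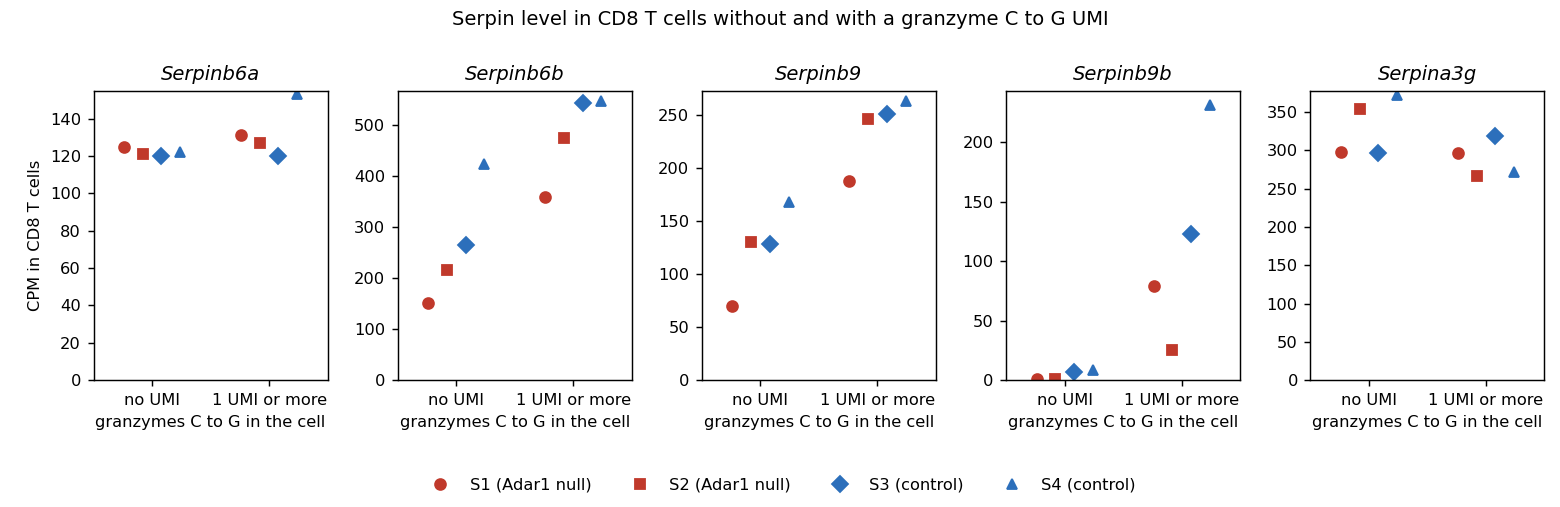
CPM of each serpin (y axis, a separate scale per gene starting at 0) in CD8 T cells without and with at least 1 UMI of granzymes C to G (x axis), with 1 point per library. Serpinb9b is under 9 CPM in all libraries without these granzymes and between 25.5 and 231 CPM with them, while the values of Serpina3g overlap.

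Over the 12 sums of CD8 T cells, monocytes or macrophages and melanoma cells in 4 libraries, the genes closest to each serpin were ranked by Pearson's r of log2(CPM + 1) among 9525 genes. The 12 sums share libraries and 3 classes, so r mostly reads the class. Nearest to Serpinb9b were Gzme (r = 0.993), Gzmd (0.993), Gipc2 (0.988) and Gzmf (0.986). Nearest to Serpinb6b were Cd226 (0.995), an activating receptor, with Satb1, Ms4a4b and Klrd1 next. Nearest to Serpinb9 was Spn (0.998), which encodes the T cell surface sialoglycoprotein CD43. Serpina3g was nearest to Tap2 (0.996), Psmb8 (0.995) and Psmb9 (0.994), genes of antigen processing that interferons induce. Serpinb6a was nearest to Cxcr4 (0.983) and Enpp1 (0.978). Between the serpins r was 0.966 for Serpinb6b with Serpinb9, 0.922 for Serpinb6b with Serpinb9b and 0.840 for Serpinb9 with Serpinb9b. Serpina3g had r = 0.859 with Serpinb9, 0.809 with Serpinb6a, 0.701 with Serpinb6b and 0.504 with Serpinb9b, and Serpinb6a had r = 0.299 to 0.589 with the other clade B genes.

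The comparison of Adar1 null with control tumours asked whether these inhibitors differ in the infiltrating cells when the tumour lacks the enzyme. In CD8 T cells, Serpinb6b (232 and 299 CPM in null, 422 and 515 CPM in control) was lower in both null libraries than in both control libraries. The log2 fold change was -0.86 ± 0.15 (SE) and did not pass the test over 8995 genes (edgeR quasi-likelihood, Benjamini-Hochberg adjusted p = 0.122), at rank 12 by p. Serpinb9 (115 and 167 CPM against 197 and 238 CPM) had a log2 fold change of -0.66 ± 0.18 (edgeR, adjusted p = 0.622). Serpinb9b (31.3 and 9.12 CPM against 72.2 and 175 CPM) had one of -2.73 ± 0.98 (edgeR, adjusted p = 0.884), with a wide error. Serpinb6a (127 and 123 against 120 and 145 CPM) and Serpina3g (298 and 326 against 310 and 298 CPM) overlapped between the groups, at -0.13 ± 0.13 (edgeR, adjusted p = 0.947) and 0.00 ± 0.11 (adjusted p = 0.999). Without the 2 collagen-carrying cells the value for Serpinb6a was -0.20 ± 0.13 (edgeR, adjusted p = 0.915).

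Both null libraries were thus below both control libraries for 3 of the 5 genes, Serpinb6b, Serpinb9 and Serpinb9b, where 14.1% of all genes tested were so placed and 21.9% were placed the other way. None of the 5 was called. The call rule, an adjusted p under 0.05, was met by 0.0111% of genes lower and 0.0334% higher. At an unadjusted p under 0.05, Serpinb6b and Serpinb9 were lower, as were 3.24% of genes, while 2.77% were higher. DESeq2 called Serpinb6b (log2 fold change -0.85, adjusted p = 0.00239). Of 12 alternatives for Serpinb6b, all had the same sign and 6 made the call. It was called without S1 (-0.69), without S2 (-1.05) and without S3 (-1.01) and not without S4 (-0.69, adjusted p = 0.197 by edgeR). Serpinb9 was called without S2 (-0.96), and Serpinb9b without S1 (-3.79) or without S2 (-2.02), when the lone null library was assumed to vary as the control libraries did.

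The share of CD8 T cells with a granzyme C to G UMI moved with the same groups, at 32.0% and 24.3% in null and 47.2% and 66.8% in control libraries. Among cells with such a UMI alone, the log2 fold change between genotypes was -0.41 ± 0.15 for Serpinb6b, -0.26 ± 0.15 for Serpinb9 and -1.82 ± 0.79 for Serpinb9b (edgeR, adjusted p = 0.884 for Serpinb6b and 0.978 for Serpinb9b). Among cells without one it was -0.93 ± 0.25 for Serpinb6b (adjusted p = 0.515) and -0.58 ± 0.30 for Serpinb9, and Serpinb9b had too few UMIs to be tested. The sign was the same in both kinds of cell, and the size for Serpinb6b and Serpinb9 was smaller in cells with granzymes C to G. Whether the 2 kinds of cell differed in this was not tested. A split at 1 UMI does not match the level of granzymes C to G between genotypes. In the highest granzyme tertile these granzymes summed to 2284 and 565.5 CPM in null and 9061 and 18584 CPM in control libraries. Median depth of CD8 T cells was 7752 and 9213 UMIs in null and 9128 and 9797.5 UMIs in control libraries, and its part in the differences was not tested.

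Outside CD8 T cells no serpin was called. In monocytes or macrophages Serpinb6a alone of the 5 had both null libraries (184 and 76.5 CPM) below both control libraries (188 and 357 CPM), where 18.7% of genes did, and none had them above, where 16.7% did. S1 and S3 lay close together and the log2 fold change was -1.06 ± 0.52 (edgeR, adjusted p = 0.869). Serpina3g went the other way in its mean, at 178 and 387 CPM in null and 237 and 104 CPM in control, but the groups overlapped (0.73 ± 0.54, edgeR, adjusted p = 0.869). Serpinb9 (0.73 ± 0.50, edgeR, adjusted p = 0.869) passed the test only without S3 (1.61, adjusted p = 0.0433), and Serpinb6b had a log2 fold change of 0.56 ± 0.70 in this class. In melanoma cells Serpinb6a stood at 29.6 and 29.5 CPM in null and 30.2 and 33.5 CPM in control (-0.12 ± 0.10). Both null values were again below both control values, where 14.7% of genes were so placed and 17.4% the other way. The test called 0.0177% of genes higher and 0.00885% lower in melanoma cells. Serpinb9b had too few UMIs in both classes to be tested. The count of genes called was 0 of 10939 in monocytes or macrophages by edgeR, with 173 higher (1.58%) and 348 lower (3.18%) at an unadjusted p under 0.05 and 24 called by DESeq2.

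Over all kept cells together, Serpinb9b stood at 4.88 and 3.04 CPM in null and 9.81 and 17.6 CPM in control, and Serpinb6a at 97.1 and 73.0 against 114 and 211 CPM. These 2 of the 5 genes were lower in both null libraries, where 14.4% of genes were and 34.2% were higher. The log2 fold change was -1.87 ± 0.42 for Serpinb9b (edgeR, adjusted p = 0.558, but 0.00253 by DESeq2) and -1.01 ± 0.38 for Serpinb6a (adjusted p = 0.562). Sums over all cells cannot tell fewer cells of a class from less RNA per cell. S4 held 1915 monocytes or macrophages, a class with 357 CPM of Serpinb6a there, against 952 to 1113 in the other libraries.

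A test of whether the genotype difference was another in CD8 T cells than in monocytes or macrophages called 17 of 11209 genes (0.152%) and none of the serpins. The difference of log2 fold changes, CD8 T cells less monocytes or macrophages, was -3.01 ± 0.69 for Serpinb9b (edgeR, adjusted p = 0.210), with 25 UMIs in all monocytes or macrophages behind it. It was -1.55 ± 1.02 for Serpinb6b, -1.51 ± 0.64 for Serpinb9, -0.75 ± 0.56 for Serpina3g and 1.01 ± 0.46 for Serpinb6a (edgeR, adjusted p between 0.846 and 0.924). Serpinb9b was called here without S1 (-4.13) or without S3 (-2.96), Serpinb6b (-2.88) and Serpinb9 (-2.39) without S3, and Serpinb6a (1.62) without S1.

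**Figure D4:**
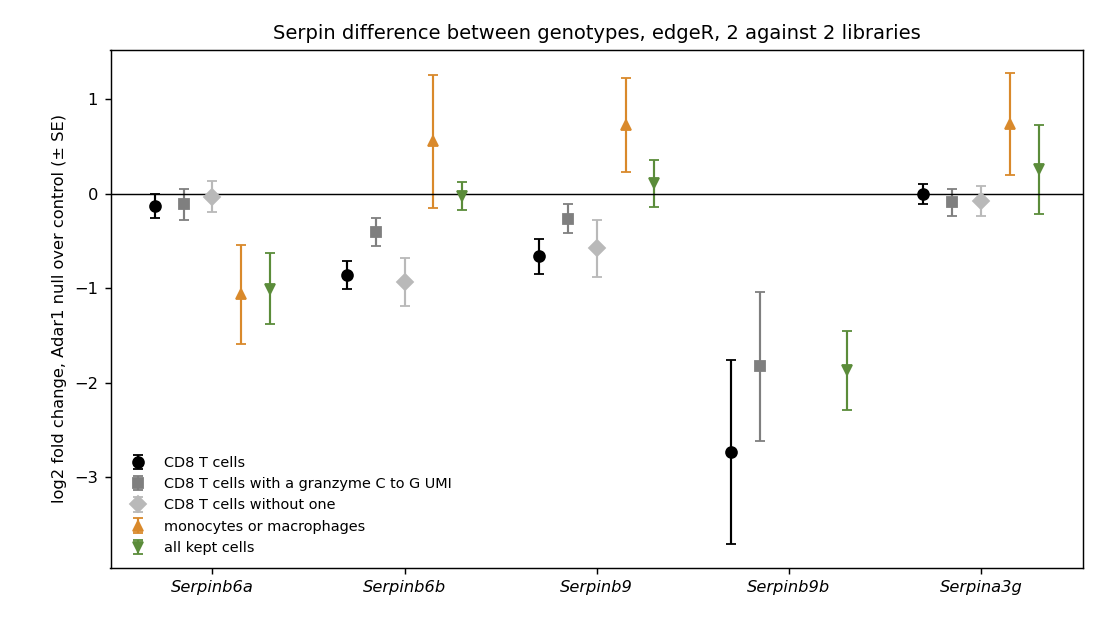
Log2 fold change of Adar1 null over control (y axis, 2 against 2 libraries) for each serpin (x axis). The sets of cells are CD8 T cells, those with and without a granzyme C to G UMI, monocytes or macrophages and all kept cells. A serpin is shown where it could be tested, and melanoma cells are left out. Bars are an SE derived from the edgeR F statistic. Serpinb6b, Serpinb9 and Serpinb9b lie below 0 in CD8 T cells, at -0.86, -0.66 and -2.73, while Serpina3g lies at 0.00. In monocytes or macrophages the smallest SE is 0.497, that of Serpinb9.

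The matrix had 62 serpin genes, of which 40 had a UMI and 8 reached 10 CPM in the CD8 T cells of at least 2 libraries. Beside the 5 described, these were Serpine2, Serpina3f and Serpinh1. Serpine2, a secreted inhibitor of thrombin and plasminogen activators known as protease nexin 1, stood at 59.7, 120, 142 and 205 CPM. It had rank 15 in the ratio of the highest to the lowest granzyme tertile (2.09 ± 0.83), above Serpinb6b and Serpinb9. Serpina3f, the neighbour of Serpina3g, stood at 35.7, 58.3, 76.1 and 44.6 CPM and had rank 986. Serpinh1, a chaperone of collagen, was called higher in null CD8 T cells (20.3 and 15.6 CPM against 1.16 and 1.89 CPM). Of its UMIs, 43 of 50 in S1 and 49 of 53 in S2 came from the 2 collagen-carrying cells, and without these cells it was no longer called. The other paralogs Serpinb9c to Serpinb9g had no UMI in any cell and Serpinb6c, Serpinb6d and Serpinb6e had 4, 1 and 1.

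Genes that work beside the serpins were read from lists. Of 16 genes of the killing machinery, 6 were higher and 3 lower in the highest granzyme tertile in all 4 libraries, with a median log2 ratio of 0.27 against -0.00 over all genes. Over all genes 11.4% were higher and 10.9% lower in all 4 libraries. Among them Prf1 had a mean log2 ratio of 2.52, Ifng of 0.78 and Cst7 of 0.59, while Lamp1, a granule membrane protein, had -0.97. Cst7 encodes cystatin F, an inhibitor of the cathepsins that activate granzymes. Of 6 cathepsins measured from the list of proteases that serpins of these clades can bind, 4 were lower in all 4 libraries. They were Ctsl (-0.91), Ctsh (-0.90), Ctss (-0.70) and Ctsz (-0.49), and Ctsd was higher (0.38). Ctsc (0.03) and Ctsw (-0.44) were listed with the killing machinery instead, and Ctsh in both lists. Ctsw was lower in all 4 libraries and Ctsc was not. Cathepsin B (Ctsb), the known target of Serpina3g, had a ratio of 0.03, where that of Serpina3g was -0.21. Of 7 measured naive or memory genes, 3 were lower and none higher, with a median of -0.98.

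Between genotypes none of these list genes was called in CD8 T cells. Counts of genes higher or lower in both null than in both control libraries stand against 21.9% and 14.1% of all genes tested. The killing machinery had a median log2 fold change of -0.07, with 1 gene of 16 higher and 3 lower. The 6 cathepsins of the list of bound proteases had a median of -0.09, with 2 higher and 1 lower. The 8 granzymes tested had a median of -2.95, with 1 higher, Gzma (1.53), and 5 lower, Gzmc, Gzmd, Gzme, Gzmf and Gzmg. Gzmb (-0.23) and Gzmk (0.49) overlapped between the groups. Of 15 interferon-stimulated genes, 9 were higher and none lower, with a median of 0.69 against 0.00 over all genes. Among NF-kB response genes 1 was higher and 4 were lower of 10 (median -0.16), and of 9 genes of inhibitory receptors and activation 1 was higher, the transcription factor gene Tox, and 4 were lower, Pdcd1, Havcr2, Lag3 and Tnfrsf9 (median -0.31). Serpina3g and Serpinb6a thus differed by less than the spread between libraries. Serpinb6b, Serpinb9 and Serpinb9b were placed as granzymes C to G were. They were not placed as Gzma or Gzmb, the granzymes named above as targets of Serpinb6b and Serpinb9. None of these serpins or granzymes was called. The serpins were chosen by their relation to granzymes in the same cells, so nothing is read from the likeness. The share of cells with granzymes C to G also differed between the groups, as given above.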

How the data were processed

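The authors deposited a single matrix that holds the raw UMI count of every gene in every cell. The submitters' processing notes list Cell Ranger, Seurat 2.2.0 and mm10. Not given in the sources used here are Cell Ranger's version, the annotation and earlier filters, but no barcode had under 3961 UMIs. Library names of the barcodes show the group and no replicate number. Separate mice are not stated, and a p-value here therefore reflects spread among libraries alone, which may be technical.

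A cell needed 500 genes or more and no more than 10% mitochondrial UMIs, which removed 161. No doublet caller was run, and cells with markers of a second lineage over set maxima were left out of the classes. UMIs were summed per library and class and scaled to 1000000 UMIs (CPM), a unit computed here from the deposited counts. Intervals and the limits set by 3 counts cover counting error only. Free RNA was not corrected. Genotypes were compared with edgeR 4.0.16 in R 4.3.3 (TMM, expression filter, robust quasi-likelihood test, Benjamini-Hochberg adjusted p under 0.05), in classes with at least 50 cells in each library and over all kept cells. Each SE of a genotype difference is the absolute log2 fold change divided by the square root of the edgeR F statistic. The sums were tested on simulated data first. DESeq2 1.42.0, no filter, stricter gates, clusters (scanpy 1.11.5, leidenalg 0.10.2), equal cell numbers and leaving out each library were alternatives. Splits of CD8 T cells by granzymes C to G and the removal of collagen-carrying cells were added after seeing the data. Gate minimums were set with the data in view. The genes named are the 5 serpins, the nearest genes by correlation, other serpins at 10 CPM or more in CD8 T cells and list members with the largest values. The members and lists were chosen with earlier results of these data known.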

Additional observations from a re-analysis of the deposited data

How the results depend on the processing

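No paired analysis was possible because the library names of the barcodes carry no replicate number. Levels in CD8 T cells, natural killer cells and monocytes or macrophages moved by less than the spread between libraries in 44 of 45 alternatives, the exception being Serpina3g in CD8 T cells as the mean of each cell's CPM (329.8). The granzyme relation did so in 42 of 45, with Serpinb9b at 3.18 after thinning and at 2.81, and Serpina3g at 0.11, in the 416 cells without Mki67 or Top2a UMIs. That count compares means over libraries. Both Serpinb9b values are held down by the floor of 3 UMIs, which applied in the lowest tertile of S1 to S3. With Gzmb left out of the granzyme share, the log2 ratio in S2 fell from 0.95 to 0.086 for Serpinb6b and from 0.92 to 0.47 for Serpinb9. Both genes stayed above 0 in all 4 libraries. In CD8 T cells the genotype difference of Serpinb6b passed the threshold with DESeq2 (-0.85), without the filter (-0.85) and with clusters (-0.96), and that of Serpinb9 without the filter (-0.65). Serpina3g, near 0, changed sign with DESeq2 (0.0045), without the filter (0.0065) and with equal cell numbers (0.030). Over all cells Serpinb9b passed with DESeq2 (-1.87). Without the filter the class by genotype difference passed for Serpinb6a (1.0), Serpinb6b (-1.56), Serpinb9 (-1.52), Serpinb9b (-3.02) and Serpina3g (-0.75). The cause of these was not tested. Leaving out 1 library, which leaves a lone library assumed to vary like the others, gave ranges in CD8 T cells of -0.27 to 0.029 for Serpinb6a, -1.05 to -0.69 for Serpinb6b, -0.96 to -0.42 for Serpinb9, -3.79 to -1.95 for Serpinb9b and -0.064 to 0.066 for Serpina3g. In monocytes or macrophages they were -1.83 to -0.52 for Serpinb6a, -0.19 to 1.92 for Serpinb6b, 0.16 to 1.61 for Serpinb9 and 0.044 to 1.44 for Serpina3g. Over all cells they were -1.39 to -0.48 for Serpinb6a, -2.25 to -1.36 for Serpinb9b, -0.17 to 0.15 for Serpinb6b, -0.16 to 0.35 for Serpinb9 and -0.25 to 0.77 for Serpina3g. For the difference between classes they were 0.43 to 1.62 for Serpinb6a, -2.88 to -0.50 for Serpinb6b, -2.39 to -0.67 for Serpinb9, -4.13 to -2.30 for Serpinb9b and -1.29 to -0.16 for Serpina3g. Genes called in CD8 T cells numbered 4, against 17 with DESeq2, 142 without the filter, 7 with stricter gates, 8 with clusters, 1 with equal cell numbers, 0 in cells with and 12 in cells without granzymes C to G, 1 without the collagen-carrying cells and 7 to 165 with 1 library left out. Monocytes or macrophages had 0, against 24, 5 without the filter, and 0 to 116 with 1 library left out. Melanoma cells had 3, against 80 without the filter, 7 with stricter gates, 5 with clusters and 22 to 77 with 1 library left out. All cells had 0, against 84 with DESeq2, 1 without the filter and 0 to 105. The difference between classes had 17, against 217 without the filter, 7 with stricter gates and 17 to 270. Natural killer, dendritic and other T cell values rest on at most 142 cells per class.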
